A study of Drosophila melanogaster with 6 samples.

Results

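The 10 genes studied here drive fly cells into mitosis and out of it, and were measured in S2 cells with and without silencing of the RNA helicase Hlc. They are stg, CycA, CycB, CycB3, Cdk1, polo, aurA, aurB, fzy and fzr, chosen by gene symbol from 23882 annotated features, and all 10 passed the filter on low counts. The choice was made with earlier results of these data known. S2 is an established Drosophila melanogaster cell line of embryonic origin. Poly(A) RNA was sequenced on day 3 after cells received double-stranded RNA (dsRNA), which silences the gene of matching sequence. The control group received dsRNA against beta-gal, a bacterial gene the fly lacks. The other groups received Hlc dsRNA 2 or Hlc dsRNA 3, against the DEAD-box helicase Hlc. Each of the 3 groups holds 2 biological replicates of the same line, and the sources used here do not say whether these were separate cultures. The p-values therefore measure the spread between these libraries, which may be technical. The study concerned how Hlc acts on stress-response genes, through their resting transcription and the opening of their chromatin.

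A cell enters mitosis when the kinase Cdk1, bound to a mitotic cyclin, is switched on. The kinases Wee1 and Myt1 hold Cdk1 off by phosphorylating it, and the Cdc25 phosphatase, called string (stg) in flies, removes that phosphate. Polo and the Aurora kinases then help build the spindle, align the chromosomes and divide the cell. Exit needs the anaphase-promoting complex, a ubiquitin ligase that marks cyclins and securin for destruction. Fizzy (fzy, Cdc20) activates this ligase in mitosis, and fizzy-related (fzr, Cdh1) keeps it active from late mitosis through G1.

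Library totals ran from 56195472 to 84283999 counts. Values are given as CPM, the counts per 1000000 in the library, after TMM scaling, a correction for differences in RNA composition, with factors of 0.751 and 0.778 in the controls and 1.13 to 1.16 in the Hlc libraries. The target was low wherever Hlc dsRNA was used, at 317 and 316 CPM in the controls and 16.1 to 20.02 CPM in the 4 Hlc libraries. The label calls these embryonic stem cells. Plasmatocytes are fly macrophages, the cells S2 is most often likened to, and summed CPM of 10 of their markers was 5740 to 6060 in the controls and 9660 to 10800 with Hlc dsRNA, whereas Hml and NimC1 were near 0 (0.697 and 0.109 CPM in the controls). The collagen genes vkg and Col4a1 carried that sum, at 2250 and 2660 CPM in the controls and 4240 and 5060 CPM with Hlc dsRNA. Ppn, Pxn and eater were also higher, at 73.5, 1.8 and 43 CPM in the controls and 327, 13.4 and 78.3 CPM with Hlc dsRNA. Other markers of the list went the other way, with srp, crq and He at 371, 492 and 11.5 CPM in the controls and 249, 288 and 1.32 CPM with Hlc dsRNA. Whether this difference in blood cell markers has a part in the results below was not tested. In these bulk samples, fewer cells that make a transcript and less of it per cell cannot be told apart.

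Of the 10 regulators, 9 rose when Hlc was silenced, and fzr was the exception. In edgeR's quasi-likelihood test of both Hlc dsRNAs against control (Benjamini-Hochberg adjusted p under 0.05), 9 members were higher, 0 were lower and 1 was not called. Over all 11293 features tested, 32.2% were called higher and 32.6% lower, so a call in itself is common in these data. With library size as the only scaling, 6331 features were called higher and 1815 lower, against 3634 and 3687 here. The median log2 fold change was 1.46 over the 10 members and 0.04 over all features. More than 2-fold rises were seen for 7 members, namely stg, CycB, Cdk1, polo, aurA, aurB and fzy, against 14.9% of all features. The dsRNAs were also compared with control one at a time, against the same 2 control libraries. With dsRNA 2, 9 members were higher and 0 lower, where 30.4% of features were called higher and 30.3% lower. Those past 2-fold were 7, against 14.6% of features. With dsRNA 3, 9 were again higher and 0 lower, where 29.9% of features were called higher and 31.6% lower. There 9 were past 2-fold, CycA and CycB3 included, against 14.4% of features.

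**Figure D1:**
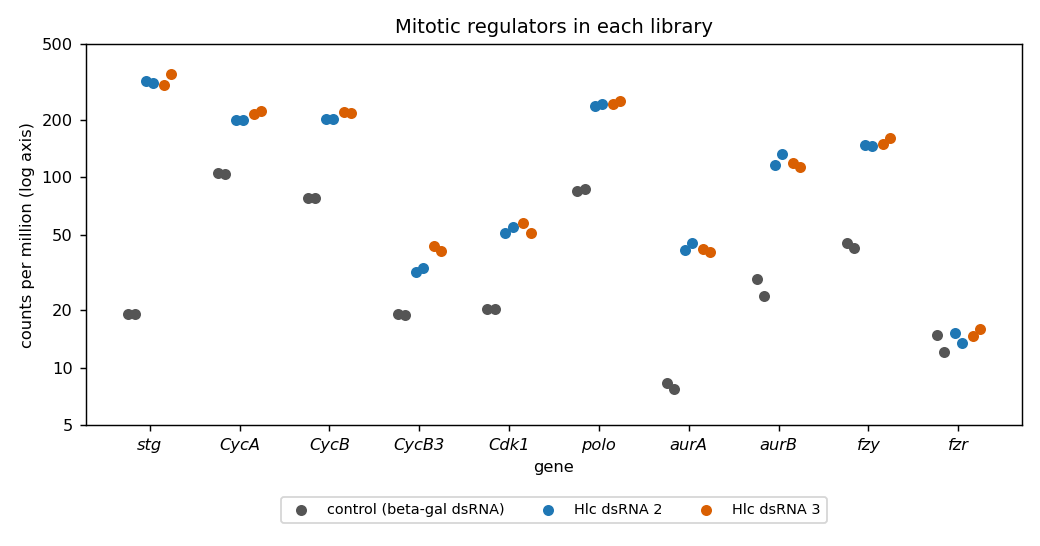
CPM (log axis) of each regulator in each of the 6 libraries, 1 point per library, coloured by group. The Hlc libraries lie above both controls for every gene except fzr, and the widest gap is that of stg. Over all features 32.2% were called higher, and how many separate in this way was not counted.

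The phosphatase gene stg (FBgn0003525, chromosome 3R, 29251826 to 29255800, minus strand) changed most. It stood at 19.2 CPM in each control, at 319.6 and 314 CPM with dsRNA 2, and at 305 and 349 CPM with dsRNA 3. The groups were far apart, and the lowest Hlc library held 15.9 times the level of the highest control. The rise was 16.8-fold, a log2 fold change of 4.07 (SE 0.07, adjusted p 3.53e-08), which ranked 192 among the 11293 features from the highest. With dsRNA 2 alone it was 4.05 and with dsRNA 3 alone 4.09. Raw counts were 935 and 1159 in the controls and 19867 to 34192 with Hlc dsRNA, so counting error is small beside the change.

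Among the mitotic cyclins, CycB rose most. CycB (FBgn0000405, chromosome 2R, 22803521 to 22806948, minus strand), whose product partners Cdk1 at mitotic entry, was at 78.0 and 77.5 CPM in the controls. It reached 201 and 203 CPM with dsRNA 2 and 220.2 and 217 CPM with dsRNA 3 (log2 fold change 1.43, SE 0.04, adjusted p 2.01e-07). CycA (FBgn0000404, chromosome 3L, 11826719 to 11833578, minus strand), a cyclin destroyed before CycB as mitosis proceeds, was at 105.6 and 103.5 CPM in the controls. Its dsRNA 2 libraries stood at 200.1 and 199 CPM, and those of dsRNA 3 at 215 and 221 CPM (log2 fold change 1.0, SE 0.04, adjusted p 1.05e-06). CycB3 (FBgn0015625, chromosome 3R, 24867934 to 24870816, minus strand), a cyclin with a role in anaphase, was the least abundant of the cyclins per kilobase of exon in every library. Control values were 19.2 and 19.0 CPM, dsRNA 2 gave 31.9 and 33.2 CPM, and dsRNA 3 gave 43.4 and 41.1 CPM. CycB3 thus changed by 0.96 on the log2 scale (SE 0.07, adjusted p 1.77e-05). For each cyclin the 4 Hlc libraries lay above both controls. Here and for the genes below, the share of all features that separate in this way was not counted.

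The gene for the kinase itself, Cdk1 (FBgn0004106, chromosome 2L, 10384739 to 10386262, minus strand), moved by nearly as much as CycB. The controls held 20.4 and 20.3 CPM, against 50.9 and 54.5 CPM for dsRNA 2 and 57.5 and 51.0 CPM for dsRNA 3 (log2 fold change 1.39, SE 0.08, adjusted p 4.54e-06). All Hlc libraries lay above both controls, and the dsRNA 2 and dsRNA 3 ranges overlapped.

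The Aurora kinases rose more than Polo in log2 fold change, with 95% intervals that did not overlap. Aurora A (aurA, FBgn0000147, chromosome 3R, 11963124 to 11964826, plus strand), which matures centrosomes and helps activate Polo, was at 8.31 and 7.72 CPM in the controls. It was at 41.5 and 45.1 CPM with dsRNA 2 and 42.2 and 40.5 CPM with dsRNA 3 (log2 fold change 2.40, SE 0.09, adjusted p 5.67e-07). Aurora B (aurB, FBgn0024227, chromosome 2L, 10856797 to 10858094, minus strand), the kinase of the chromosomal passenger complex, was at 29.4 and 23.8 CPM in the controls. The Hlc libraries held 116 and 132 CPM with dsRNA 2 and 118 and 114 CPM with dsRNA 3 (log2 fold change 2.18, SE 0.10, adjusted p 1.96e-06). The aurB controls stood further apart than those of the other members that rose. Leaving out each library in turn moved the log2 fold change of aurB between 2.03 and 2.33. Polo (polo, FBgn0003124, chromosome 3L, 20309654 to 20313466, plus strand), a kinase that acts from entry to cytokinesis, went from 85.1 and 86.7 CPM to 236 and 241 CPM with dsRNA 2 and 243 and 249.6 CPM with dsRNA 3. Its log2 fold change was 1.50 (SE 0.04, adjusted p 1.88e-07). Opposite-strand exons of CG12213 cover 9.70% of the exonic bases of aurA, and reads there cannot be divided because the strand setting of the counting is not given. CG12213 itself was not called (log2 fold change -0.05, adjusted p 0.544).

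The activators of the anaphase-promoting complex parted. The mitotic activator fzy (FBgn0001086, chromosome 2L, 16310956 to 16313097, plus strand) stood at 45.2 and 42.6 CPM in the controls. Libraries of dsRNA 2 held 148 and 146 CPM, and those of dsRNA 3 held 149 and 161 CPM. Every Hlc library lay above both controls (log2 fold change 1.78, SE 0.06, adjusted p 3.20e-07). The G1 activator fzr (FBgn0262699, chromosome X, 4667290 to 4679537, minus strand) stood at 14.9 and 12.1 CPM in the controls. Libraries of dsRNA 2 held 15.2 and 13.4 CPM, those of dsRNA 3 held 14.8 and 15.9 CPM, and the groups overlapped. Its log2 fold change was 0.14 with a 95% interval from -0.14 to 0.42 (adjusted p 0.342). With library size alone as the scaling, fzr was called higher at 0.72 (adjusted p 0.00109), where the median of all features also moved, from 0.04 to 0.62. The other 9 members were called higher under each scaling tried. Only 3.11% of the exonic bases of fzy lie opposite exons of another gene, cact, which fell (log2 fold change -1.26, adjusted p 5.18e-06).

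**Figure D2:**
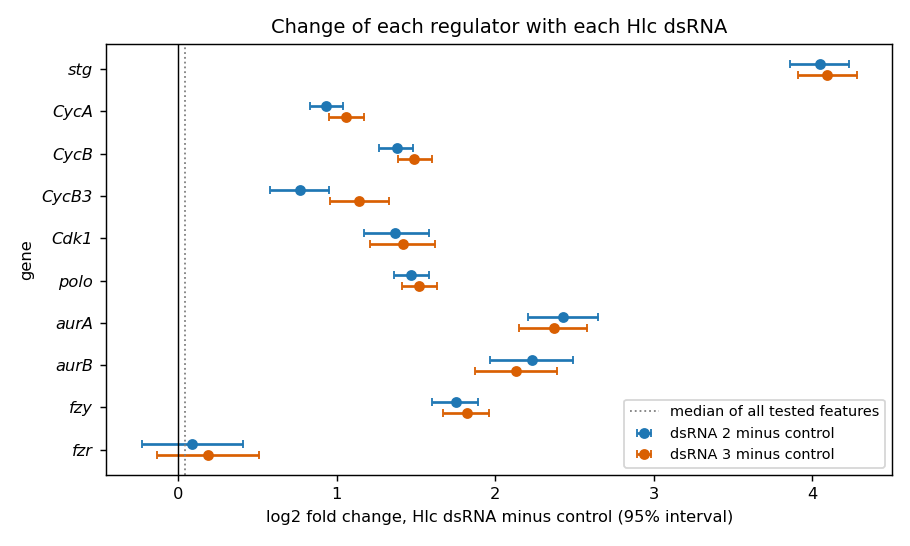
Log2 fold change of each regulator with dsRNA 2 (blue) and dsRNA 3 (orange) against the same control libraries, with 95% intervals and the median of all tested features as a dotted line. The intervals of fzr include 0, those of the other 9 genes do not, and stg lies near 4 with either dsRNA.

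No member was called between the dsRNAs, a contrast in which edgeR called 9 of 11293 features (0.0797%). At an unadjusted p under 0.05 there were 3 members, CycA, CycB and CycB3, each higher with dsRNA 3. The log2 differences were 0.13 for CycA (95% interval 0.02 to 0.24, adjusted p 0.173) and 0.11 for CycB (0.01 to 0.22, adjusted p 0.206). CycB3 differed by 0.38 (0.19 to 0.56, adjusted p 0.0883). DESeq2 (adjusted p 0.000611) and limma-voom (adjusted p 0.0446) did call CycB3, and each called 1 member. Over all features DESeq2 called 1228 and limma-voom 327 in this contrast, against 9 by edgeR. For stg the difference was 0.05 with an interval from -0.11 to 0.21. Among the remaining members the widest intervals were those of aurB, from -0.34 to 0.14, and fzr, from -0.22 to 0.41.

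The order of the members by level changed with Hlc dsRNA. Levels were set per kilobase of exon, as CPM per kilobase. In the controls CycA led at 35.8 ± 0.512, followed by polo at 28.8 ± 0.368 and CycB at 25.5 ± 0.116 (SD, n = 2). Next came aurB at 22.5 ± 3.33 and fzy at 22.0 ± 0.930, whose libraries overlapped, and then Cdk1 at 18.8 ± 0.113. The lowest were CycB3 at 6.62 ± 0.0262, stg at 6.26 ± 0.00742, aurA at 5.08 ± 0.266 and fzr at 4.84 ± 0.724 CPM per kilobase, and the libraries of aurA and fzr overlapped. In the Hlc libraries stg stood first at 105 ± 6.28 and aurB next at 101.5 ± 6.87 CPM per kilobase (SD, n = 4), with overlapping libraries. Behind them were polo at 81.4 ± 1.88, fzy at 75.6 ± 3.32, CycA at 71.6 ± 3.80 and CycB at 69.0 ± 3.16, and in this run each gene overlapped the next. Cdk1 at 49.4 ± 2.93, aurA at 26.8 ± 1.26, CycB3 at 12.97 ± 1.97 and fzr at 5.32 ± 0.372 CPM per kilobase each stood apart. Among 9068 protein-coding genes tested, stg lay above 38.4% of them in the controls and above 92.9% with Hlc dsRNA, while fzr lay above 34.8% in both.

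**Figure D3:**
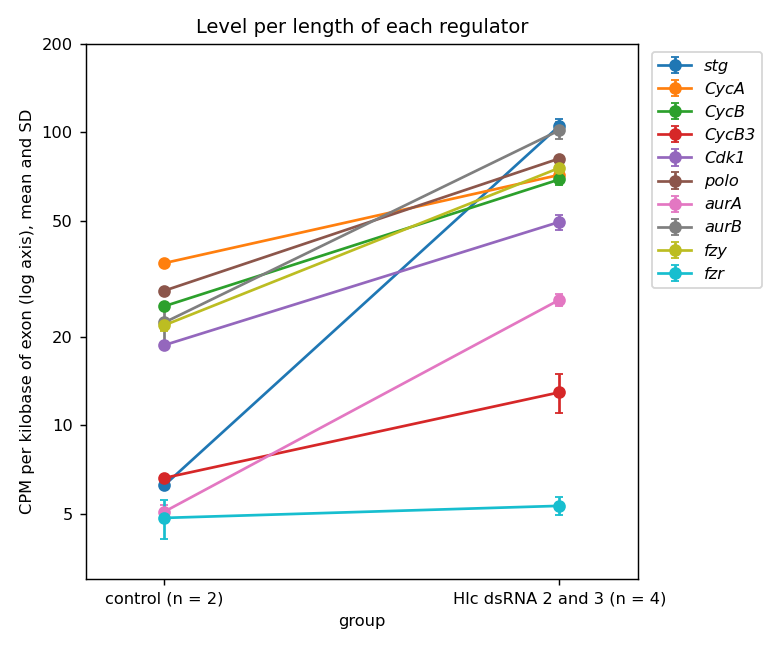
Mean level of each regulator in CPM per kilobase of exon (log axis) in the controls (n = 2) and the Hlc libraries (n = 4), with SD as error bars. The line of stg crosses those of the cyclins, Cdk1, polo, aurB and fzy, going from 6.26 to 105, and the line of fzr is nearly flat.

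Ratios between transcripts within a library do not depend on the scaling between libraries. In all, 9 pairs were compared, as log2 ratios of counts per kilobase, by an exact two-sided permutation test of 4 Hlc against 2 control libraries. That test has 15 arrangements and cannot give a p below 0.0667. The ratio of stg to Wee1, its opposing kinase, was -1.16 and -1.18 in the controls. For dsRNA 2 it was 2.28 and 2.29, and for dsRNA 3 it was 2.20 and 2.37, a difference of 3.46 from control. More Wee1 than stg was therefore present per kilobase in the controls, and more stg than Wee1 in the Hlc libraries. The same turn was seen against Myt1, from -0.21 and -0.22 in the controls to between 3.27 and 3.61 with Hlc dsRNA. Against twe, the second fly Cdc25 gene, known for its role in meiosis, stg was already in excess in the controls at 3.18 and 2.77, and reached 5.55 to 6.03.

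The balance of the anaphase activators moved as well. The log2 ratio of fzy to fzr was 2.08 and 2.30 in the controls and 3.76 to 3.93 with Hlc dsRNA. CycA exceeded CycB in the controls, at 0.50 and 0.48, and the ratio was near 0 in the Hlc libraries, at 0.03 to 0.09. The ratio of CycB to CycB3 was 1.95 in both controls, against 2.58 and 2.53 for dsRNA 2 and 2.26 and 2.32 for dsRNA 3. For aurA to aurB the values went from -2.23 and -2.04 to between -1.96 and -1.90, a difference of 0.22. The stg to fzr ratio went from 0.23 and 0.53 to between 4.23 and 4.41. Controls and Hlc libraries did not overlap in these 8 pairs (exact permutation p 0.0667 each, the smallest possible, and 0.0750 adjusted over the 9 pairs). Cdk1 to CycB was the exception, at -0.44 in both controls and -0.59 to -0.40 with Hlc dsRNA, with overlapping groups (exact permutation p 0.667). How many pairs of other genes separate between the groups was not counted. The pairs that hold stg are not independent of each other, since each carries its rise.

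**Figure D4:**
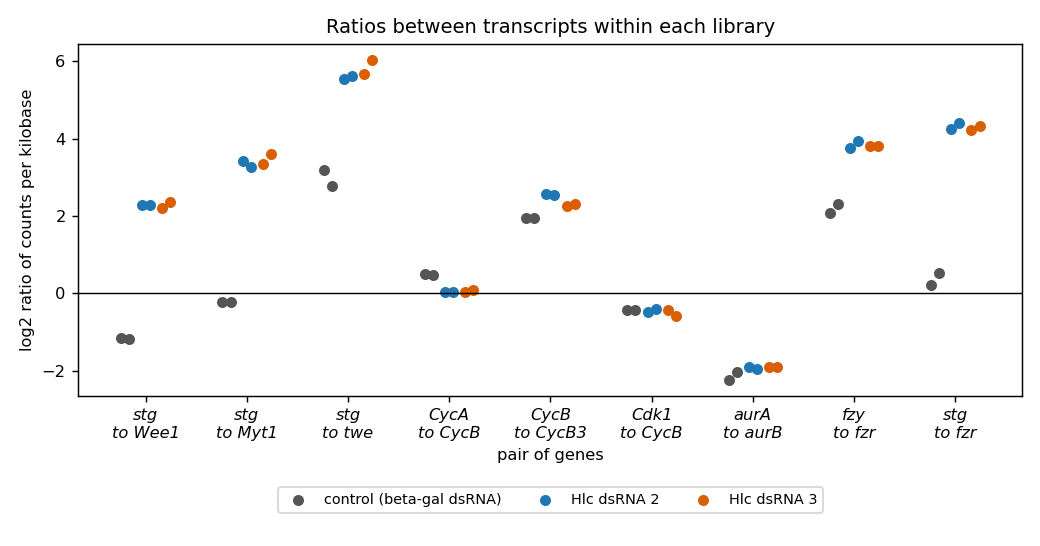
Log2 ratio of counts per kilobase for 9 pairs of genes in each library, 1 point per library, with 0 marking equal levels. The pairs of stg with Wee1 and with Myt1 lie below 0 in the controls and above 2 in the Hlc libraries, and Cdk1 to CycB stays near -0.5.

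Partner genes in 12 lists, 121 genes in all and each of them tested, were read from the same fit of both dsRNAs against control. In these lists 83 genes were higher, 15 lower and 23 not called, with a median log2 fold change of 0.54 against 0.04 for all features. Over all features 32.2% were called higher and 32.6% lower, and the counts of each list below are to be read beside those shares. The lists were chosen with earlier results of these data known, so this comparison is descriptive. With library size alone the counts were 107 higher and 7 lower, with a median of 1.13 against 0.62.

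Genes that activate or inhibit Cdk1, directly or through String, moved in both directions. Among the 10 listed, 6 rose, 2 (trbl and CycH) fell and 2 (rux and Mat1) were not called, with a median of 0.50. The smallest adjusted p was that of trbl, whose product Tribbles promotes degradation of the String protein in fly embryos. It fell from 265 ± 4.56 to 71.7 ± 3.16 CPM (SD, n = 2 and 4; log2 fold change -1.89, SE 0.04, adjusted p 7.80e-08). The opposing kinase Wee1 rose less than stg, from 37.3 ± 0.459 to 57.1 ± 1.26 CPM (log2 fold change 0.61, adjusted p 4.05e-05). Cks30A, a small subunit that binds Cdk1, rose from 7.07 ± 0.968 to 31.0 ± 0.928 CPM (2.13, adjusted p 2.75e-06). CycH, a subunit of the kinase that activates Cdks, fell (-0.85, adjusted p 3.04e-05), whereas its partner genes Cdk7 and Mat1 were at 0.56 (adjusted p 0.000679) and 0.00 (adjusted p 0.975). In the list of G2 checkpoint genes, which restrain Cdk1 when DNA is damaged or unreplicated, 5 of 6 rose and mus304 was not called (median 1.15). Claspin was at 2.28, grp (Chk1) at 1.35, mei-41 (ATR) at 1.27 and lok (Chk2) at 1.03.

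Greatwall and protein phosphatase 2A act against each other during mitosis. The Greatwall kinase gene gwl rose from 10.2 ± 0.759 to 37.4 ± 3.82 CPM (log2 fold change 1.86, adjusted p 2.92e-06). The other genes of that list moved little, with tws at 0.32, endos at 0.23, Pp2A-29B at -0.04, mts at -0.21 and wdb at -0.42. In that list of 6, 3 were higher, 2 (mts and wdb) lower and 1 not called (median 0.09), and mts and wdb turned to 0.37 and 0.17 with library size alone.

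Subunits of the anaphase-promoting complex did not follow their activator fzy. Of 15 genes of the complex and its partners, 5 were higher, 2 lower and 8 not called, with a median of 0.04, equal to that of all features, of which 32.2% were called higher. The ubiquitin-conjugating enzyme vih, which works with the complex, was at 0.34 (adjusted p 0.00171), and APC7 at -1.13 (adjusted p 0.000233). The other 3 that rose beside vih and cort were APC4 (0.36), ida (0.58) and the inhibitor Rca1 (0.47). The subunits shtd and mr were at 0.04 and -0.23 and were not called. With library size alone they were called higher, at 0.62 (adjusted p 0.000114) and 0.35 (adjusted p 0.024). Under that scaling 11 genes of the list were higher and 1 lower, where 56.1% of all features were called higher. The median was then 0.62 both for the list and for all features. The relatives of fzy and fzr in this list are low or germline genes. The meiotic activator cort was at 1.62 ± 0.206 CPM in the controls and 4.56 ± 0.960 with Hlc dsRNA (1.47, adjusted p 0.000196), and fzr2 at -0.48 (adjusted p 0.00326), but was at 0.10 (adjusted p 0.383) when library size was the only scaling.

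Among 9 genes of the spindle assembly checkpoint, which holds Fizzy inactive until chromosomes are attached, 7 were higher, 1 lower and 1 not called (median 0.85). The kinetochore gene rod was at 1.44, mad2 at 1.17, BubR1 at 1.03 and Bub3 at 0.85. Bub1 was the lower one (-0.59, adjusted p 0.00122), but stood at -0.01 (adjusted p 0.928) under scaling by library size, and Mad1 was not called. In the list of separase, securin and cohesin, 9 of 12 were higher and 3 lower (median 0.62). Both partners of the cut that starts anaphase rose, with the separase genes Sse and thr at 1.15 and 1.70 and securin, pim, at 1.05. The cohesin subunits SMC1 and SA were at 0.75 and 0.69 and the acetyltransferase eco at 0.89. The 3 lower genes, vtd, Nipped-B and wapl, code for the cleaved cohesin subunit, the loader and the release factor, at -0.48, -0.44 and -0.63. With library size alone these stood at 0.10, 0.14 and -0.05.

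**Figure D5:**
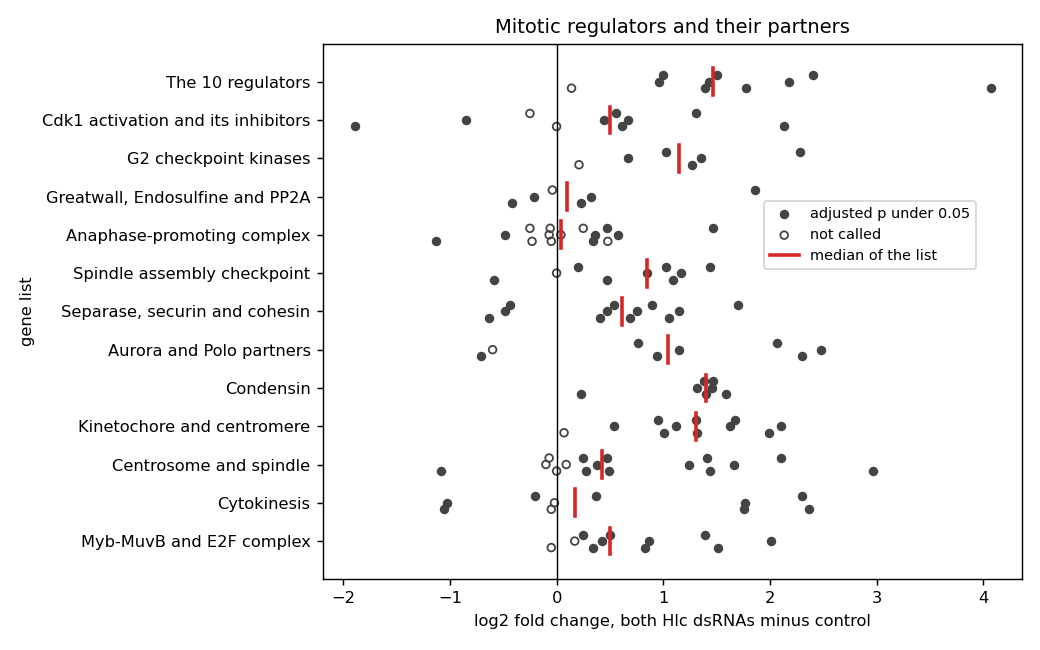
Log2 fold change of each gene in the 10 regulators and in 12 lists of partner genes, both Hlc dsRNAs against control, with filled points for an adjusted p under 0.05, open points for genes not called and a red bar at each list's median. Condensin genes all lie above 0, and the anaphase-promoting complex is centred near 0.

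Of 8 partners of the Aurora and Polo kinases, 6 rose, 1 fell and 1 was not called (median 1.05). Bora, an activator of Aurora A, rose from 5.77 ± 0.0273 to 32.2 ± 0.814 CPM (SD, n = 2 and 4; log2 fold change 2.48, SE 0.08, adjusted p 4.39e-07), a change close to that of aurA. The kinesin gene sub was at 2.30 and mei-38 at 1.15. Within the passenger complex of Aurora B, borr (Borealin) was at 2.07, Det (Survivin) at 0.94 and Incenp at 0.76, beside 2.18 for aurB. Map205, which binds Polo on microtubules, fell from 301 ± 1.34 to 185 ± 19.7 CPM (-0.71, adjusted p 3.44e-06), and was at -0.13 (adjusted p 0.0411) with library size alone. The Polo inhibitor mtrm was near 0, with 0.272 and 0.199 CPM in controls and Hlc libraries.

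Condensin, the complex that compacts mitotic chromosomes, rose in all 7 of its genes (median 1.40), from 0.23 for Cap-D3 to 1.59 for barr. SMC2, glu and Cap-H2 were at 1.38, 1.40 and 1.46. At the centromere and kinetochore 10 of 11 genes rose and Nnf1b was not called (median 1.31). Spc105R went from 13.6 ± 0.461 to 58.8 ± 6.68 CPM (SD, n = 2 and 4; 2.1, adjusted p 3.98e-07), the centromeric histone cid was at 1.99, Nnf1a at 1.67 and Ndc80 at 1.32.

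The centrosome and spindle list held 16 genes, and 11 of them rose, 1 fell and 4 gave no call (median 0.43). The spindle pole gene asp rose from 10.2 ± 0.115 to 80.6 ± 11.1 CPM (SD, n = 2 and 4; log2 fold change 2.97, SE 0.06, adjusted p 4.27e-08). Below it were feo, a midzone microtubule bundler, at 2.1, the centriole duplication genes SAK and Sas-4 at 1.66 and 1.44, and mud at 1.41. The centrosome scaffold cnn fell (-1.08, adjusted p 6.33e-07). For cytokinesis the list held 10, of which 5 rose, 3 fell and 2, dia and Septin1, were not called (median 0.17). The kinesin pav was at 2.37, anillin, scra, at 2.30, tum at 1.77, citron kinase, sti, at 1.76 and pnut at 0.37. Of the 3 lower, Septin2 was at -1.06 and pbl at -1.03.

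Factors that control transcription of G2 and M phase genes were also listed. The Myb-MuvB and E2F list held 11 genes, of which 9 rose, 0 fell and 2, Rbf and lin-52, were not called (median 0.50). The MuvB subunits mip120 and mip130 were at 1.51 and 1.39, Rbf2 at 2.01, Caf1-55 at 0.83 and Myb at 0.34. E2f1 was at 0.87 (adjusted p 3.99e-05).

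The genes whose pattern over the 6 libraries lay nearest to that of stg were aos, btn, by, gb and Orct. Likeness was the root mean square difference of centred log2 CPM, among 6566 features with a mean of at least 10 CPM. It was 0.131 for aos, 0.211 for btn, 0.238 for by, 0.278 for gb and 0.335 for Orct, with log2 fold changes of 3.88, 3.95, 3.64, 3.50 and 3.42. In the controls aos, btn, by and gb stood at 3.91, 4.91, 1.35 and 5.73 CPM. These genes therefore passed the 10 CPM floor only through the Hlc libraries, whereas Orct was at 30.7 CPM in the controls. Since stg separates controls from Hlc libraries by far more than its replicates differ, a gene with a step of like size scores as near. The nearest other member was aurA, at 0.793, and fzr was the furthest, at 1.85.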

How the data were processed

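The authors deposited raw counts for each annotated feature, as whole numbers without normalization, in a single table whose columns were matched to samples by name. The submitters' processing notes list BDGP6 as the genome build, and StringTie 2.1.7, TopHat2 2.1.0 and Trimmomatic 0.36 with no role given for any. How reads were counted, and with which strand setting, is not given in the sources used here. Positions and exonic lengths (1-based) come from Ensembl BDGP6.54, release 115, where 99.7% of features were found.

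Counts were filtered with filterByExpr, TMM-scaled and tested in edgeR 4.0.16 (R 4.3.3) in a single quasi-likelihood fit over 6 libraries and 3 group means, after the code was tested on simulated data. P-values were adjusted over 11293 features. An SE is the size of the log2 change over the root of its F statistic. Replicate counts varied beyond sampling noise, with chi-square values of 29.6 to 41.0 per degree of freedom. Members and partner lists were chosen with earlier results of these data known. Named partners are up to 4 per list with the smallest adjusted p, and others named were chosen after their values were seen. Of the partner symbols, 4 were matched through synonym tables. Alternatives were other scalings, filters, DESeq2 1.42.0, limma-voom (limma 3.58.1), a replicate block, libraries left out and fits of only the groups compared. Partners without values in the text enter only through the counts of their list, and 1 of them is not reported here whatever its values.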

Additional observations from a re-analysis of the deposited data

How the results depend on the processing

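The 9 members called higher against control were called higher with both dsRNAs together and with each alone under every alternative scaling, filter, test, block and left-out library. Of the 8 ratios without overlap, 0 changed sign. With library size alone fzr was called with dsRNA 2 (0.67) and dsRNA 3 (0.78) too. The fzr change ran from -0.01 (without control replicate 2) to 0.29 for both dsRNAs, and for dsRNA 2 from -0.06 (without control replicate 2) to 0.25, with -0.01 without dsRNA 2 replicate 1. Among the partners given with values, scaling by library size alone turned mts, wdb, fzr2, vtd and Nipped-B to 0.37, 0.17, 0.10, 0.10 and 0.14. Pp2A-29B and mr, lower but not called in the main fit, turned to 0.54 and 0.35 and were called higher. Between the dsRNAs, where 1 library was left out, Cdk1 ran from -0.04 to 0.13 (-0.00 without dsRNA 2 replicate 1), aurA from -0.12 to 0.00 and stg from -0.05 to 0.15, none of them called.

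The count of features called between the dsRNAs was unstable. Against 9, it was 1 with library size alone, with the replicate block or with only the groups compared, 34 with no filter, 172 with the 1 CPM filter, 1228 by DESeq2 and 327 by limma-voom, and it ranged from 1 to 148 without 1 library (148 without dsRNA 3 replicate 1, and 1 without either control or dsRNA 3 replicate 2). DESeq2 and limma-voom each called 1 member there, CycB3. Replicate numbers did not pair the libraries (correlations of deviations -0.11 to 0.09), and with the replicate block the count for both dsRNAs was 7099 against 7321, with 9 members called. Rises made up 77.7% of calls with library size alone and 57.4% with upper-quartile factors. Low counts limit the values of mtrm, Cdc26, cort, CG45544, CG5096, stl and CG7264.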

Other observations

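The nearest tested genes on the chromosome were read beside the mitotic regulators. Of 18 neighbours of the 9 members that rose, 4 were higher, 8 lower and 6 not called, where 32.2% of all features were called higher and 32.6% lower. The lower call of stl, beside CycB, rests on 28 counts in all in the controls and 0 with Hlc dsRNA. Like CG45544 below, stl passed the filter only through the group where it is high. CG7264, counted beside CycA, starts within that gene and was not called. Beside stg, SP1029 (1374 bases away) rose from 32.8 to 59.4 CPM (log2 fold change 0.85, adjusted p 9.92e-06), far less than stg itself. On its other side, CG45544 (684 bases away) had 0 counts in all in the controls and 87 in all with Hlc dsRNA. Also higher were CG5096, 15 bases from Cdk1, and CG32095, beside CycA (log2 fold change 0.72, adjusted p 0.000466). CG5096 was at 2.31 (adjusted p 0.00286), against 1.39 for Cdk1, from 42 counts in all in the controls and 589 with Hlc dsRNA. Neither neighbour of aurB rose, with Dnz1 at 0.00 and Stam at -0.89 (adjusted p 4.04e-05). Beside polo, SCCRO4 was at 0.01 and alphaSnap at -0.71 (adjusted p 1.58e-05). CycB3 lies 282 bases from Elal, which fell from 8.49 to 0.811 CPM (-3.41, adjusted p 5.73e-06) while CycB3 rose. Next to fzy, cni was at -0.80 (adjusted p 7.49e-06), and cact, which codes for the inhibitor of the Toll pathway factors and overlaps fzy by 62 bases, fell from 327 to 136 CPM. The neighbours of fzr, Cbp80 and Pp2C1, were at 0.02 and -0.01, and like fzr were not called.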
